A study of Homo sapiens with 6 samples.

Results

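The genes described here are 10 genes around CCN1 that belong to the YAP/TAZ pathway: the targets CCN1, CCN2, ANKRD1, AMOTL2 and AJUBA, the kinases LATS1 and LATS2, the co-activators YAP1 and WWTR1, and the DNA-binding factor TEAD1. They were found by their symbols and are 10 of the 28491 genes in the count table. CCN1 was picked from its measured fall in this same comparison, and the others were chosen as its pathway partners with that fall known. The differences of these 10 genes are therefore given as a description, with no p-value, and the question asked of them is whether the lower level of CCN1 was shared by other targets.

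The libraries came from HCT116, an established human colorectal carcinoma cell line, and were made from polyadenylated RNA. The 3 NC libraries came from cells given a control plasmid, and the 3 RBM47-OE libraries from cells transfected to overexpress RBM47, an RNA-binding protein with a role in pre-mRNA splicing and mRNA stability. All cells received plasmid with a lipid reagent and were harvested, by the sources, 48 h later. The transfection was transient, the share of cells that took up plasmid is not given, and the labels and the methods name different RBM47 plasmid backbones, culture media and library kits. Nothing states that the 3 libraries of a group came from separate cultures, so any test measures the spread between these libraries, which may be technical.

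The Hippo pathway is a kinase cascade in which MST kinases activate LATS1 and LATS2, and these phosphorylate YAP1 and TAZ (the protein of WWTR1) and keep them out of the nucleus. In the nucleus, YAP1 and TAZ bind TEAD factors and switch on target genes, of which CCN1, CCN2 and ANKRD1 are the usual readouts. AMOTL2, AJUBA and LATS2 are targets too, and their proteins act back on the pathway. In the gut, YAP1 is known for its part in regeneration of the epithelium and in tumour growth.

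The sequences that the targets are known for are the TEAD sites upstream of their starts, and those of CCN2 and ANKRD1 are shown because they are the textbook examples. Each sequence holds the 250 bases before a RefSeq start of the gene (GRCh38.p14, read 5′ to 3′ on the minus strand, on which all 3 genes shown lie). Capitals mark the TEAD motif CATTCC or its reverse complement GGAATG.
CCN2 (chr6:131951373-131951622): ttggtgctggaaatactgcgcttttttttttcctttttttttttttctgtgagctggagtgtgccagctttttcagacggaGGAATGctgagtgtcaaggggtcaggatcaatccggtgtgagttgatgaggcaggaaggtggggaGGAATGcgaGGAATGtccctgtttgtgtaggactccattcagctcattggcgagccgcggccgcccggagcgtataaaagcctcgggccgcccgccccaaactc
ANKRD1 (chr10:90921088-90921337): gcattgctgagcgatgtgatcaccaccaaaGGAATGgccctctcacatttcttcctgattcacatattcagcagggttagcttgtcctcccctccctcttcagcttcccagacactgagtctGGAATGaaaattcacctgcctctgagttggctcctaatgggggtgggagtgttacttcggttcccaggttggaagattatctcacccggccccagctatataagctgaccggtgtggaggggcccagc
AMOTL2 is added as the target of the set that was next lowest to CCN1 in log2 fold change. With the GC offset described below, CCN2 and AJUBA were lower than AMOTL2. AMOTL2 is shown with the only one of its promoters that held the motif. That promoter precedes an alternative RefSeq start inside the gene (chr3:134355347-134375479), and the promoter at the gene's outer end held no motif.
AMOTL2 (chr3:134374448-134374697): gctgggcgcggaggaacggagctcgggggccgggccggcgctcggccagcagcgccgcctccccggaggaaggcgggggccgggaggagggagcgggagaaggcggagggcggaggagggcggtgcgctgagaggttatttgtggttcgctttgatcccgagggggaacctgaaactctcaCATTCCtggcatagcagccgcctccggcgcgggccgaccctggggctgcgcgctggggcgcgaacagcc
The motifs in CCN2 began at -169, -104 and -95 relative to the gene's start, and those in ANKRD1 at -220 and -128. That in AMOTL2 began at -69 relative to the alternative start. The RefSeq promoter table (250 bases before to 50 after the start) matched 8 of the 10 genes. CCN1 and TEAD1 had no entry. Over both strands, YAP1 and 1 promoter of AJUBA held 1 motif upstream of the start, LATS2 held 1 that began at 9 bases after the start, and LATS1 and WWTR1 held none. The AJUBA promoter with the motif precedes a start inside the gene, and the promoter at that gene's outer end held none. Among all 35116 promoters of that length, 4928 held at least 1 motif, 1.37% at least 2 and 0.128% at least 3. These matches describe letters in a window and say nothing of whether TEAD bound there.

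For CCN1 itself, the study's own RT-qPCR primer pair shows which stretch of the transcript a separate assay reads, and both primers matched 1 place in the genome.
CCN1-F (chr1:85582428-85582445, plus strand): agcctcgcatcctataca
CCN1-R (chr1:85582525-85582543, minus strand): gtcattggtaactcgtgtg
Both lie in the coding part of exon 4 of 5 in the canonical transcript, and the product spans 116 bases. By RT-qPCR, the study reported CCN1 as lower after RBM47 overexpression.

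The libraries held 26792409 to 35477983 counts on genes, and 16260 genes passed the filter on low counts. RBM47 itself had 501, 797 and 552 reads in NC and 41818, 38577 and 34858 in RBM47-OE, reads from the plasmid included, so the labels and the libraries match. Of 8 colon epithelial markers, 6 were at 1 FPKM or more in every library (FPKM: fragments scaled by transcript length and by the mapped fragments of the library), while LGALS4 and VIL1 were near 0. The summed epithelial level was 1939 to 2112 FPKM in NC and 1799 to 2039 in RBM47-OE, the fibroblast sum 1.51 to 1.77 and 1.34 to 1.78, and the endothelial and immune sum 0.43 to 0.47 and 0.18 to 0.35. Of the 6 markers in each of the last lists, 1 and 0 reached 1 FPKM in every library, and the part of the lower endothelial and immune sum in any result was not tested. COL1A2, DCN, LUM and PTPRC were not among the genes in the tables. A trend over all genes touches every value below: genes rich in G and C were lower in RBM47-OE, and the Spearman coefficient of a gene's log2 difference with its exonic GC content was -0.41, -0.59 and -0.67 in RBM47-OE replicates 1, 2 and 3 (16233 genes). Each log2 fold change is thus given as fitted by edgeR with TMM scaling, and again with an offset that takes out the GC trend of each library. Among the markers, EPCAM was called higher at an adjusted p-value under 0.05 (0.26, and 0.27 with the offset), beside 19.1% of all tested genes. KRT18 (-0.36), KRT8 (-0.27) and CD68 (-1.10, at 7 to 30 reads) were called lower, beside 16.9%. None of these lower markers passed with the offset. The calls on EPCAM, KRT8 and CD68 were also lost in some fits that left out 1 library.

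By level in NC, YAP1 was the highest of the 10 genes, at 16.3 ± 0.556 FPKM (SD, n = 3), above 85.7% of 16368 protein-coding genes. TEAD1 came next at 9.68 ± 0.360 and WWTR1 at 8.62 ± 0.361, and these 3 genes did not overlap with their neighbours in the order. Then came AJUBA at 4.63 ± 0.232, CCN1 at 4.15 ± 0.353, AMOTL2 at 3.8 ± 0.0950 and LATS2 at 3.73 ± 0.167, each of which overlapped with the next. Below them, LATS1 stood at 2.48 ± 0.0346, CCN2 at 1.21 ± 0.230 and ANKRD1 at 0.03 ± 0.0265 FPKM, with no overlap. The RNA of YAP1, TEAD1 and WWTR1 was thus at higher levels in these cells than that of the classic targets, and the 3 usual readout genes differed widely in level. These libraries do not measure protein. The FPKM values of single libraries show how the groups lay against each other.

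**Figure D1:**
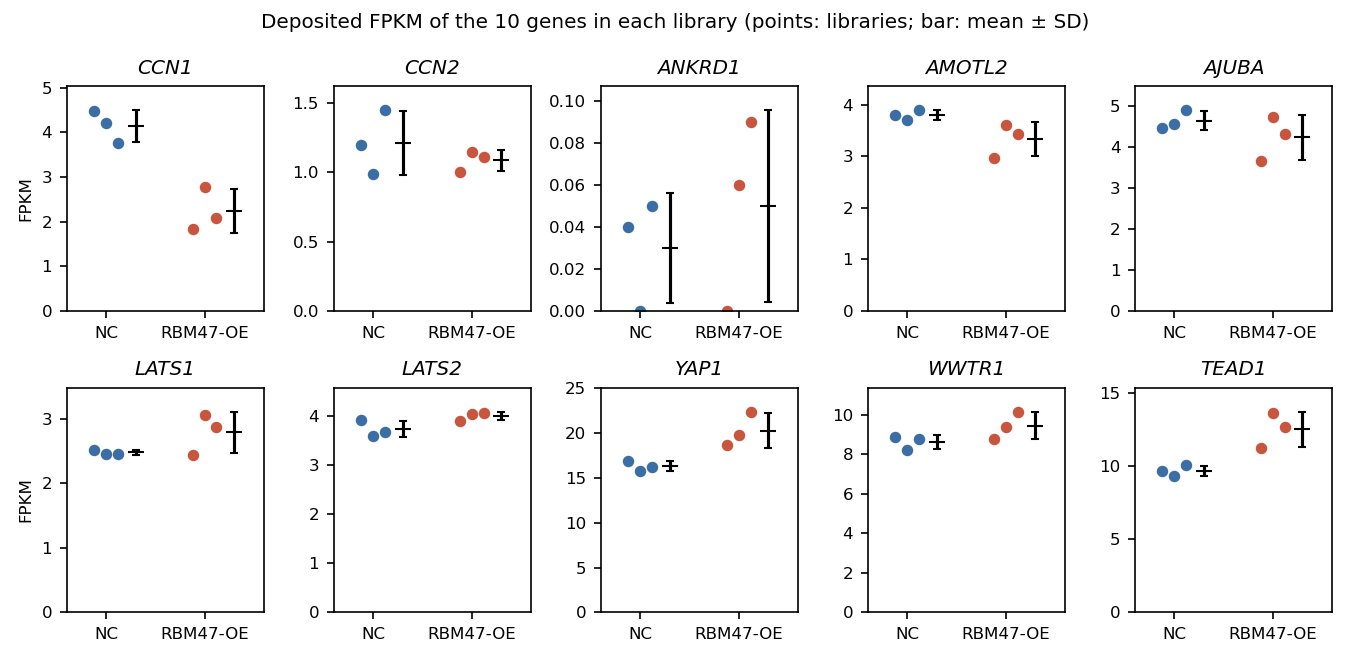
FPKM (vertical axis, linear, starting at 0, with its own scale for each gene) of the 10 genes in the 3 NC (blue) and 3 RBM47-OE (red) libraries, with the mean ± SD beside each group. CCN1 lies at 3.77 to 4.47 in NC and 1.84 to 2.78 in RBM47-OE, while CCN2, ANKRD1, AJUBA, LATS1, LATS2 and WWTR1 overlap between the groups.

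CCN1 encodes a secreted matricellular protein that binds integrins and acts in adhesion and migration. The gene (ENSG00000142871.18) lies at chr1:85580761-85584589 on the plus strand of GRCh38, and no other gene shares its exons in GENCODE 44. In NC it had 507, 621 and 465 reads, and in RBM47-OE 253, 356 and 247. Its FPKM was 4.47, 4.2 and 3.77 in NC (mean 4.15 ± 0.353, SD, n = 3), against 1.84, 2.78 and 2.08 in RBM47-OE (mean 2.23 ± 0.488). All RBM47-OE libraries lay below all NC libraries, and replicate 2 of RBM47-OE was the nearest to NC. The log2 fold change was -0.97 (SE 0.124, 95% confidence interval -1.22 to -0.71). With the GC offset it was -0.95 (-1.18 to -0.71), and it lay between -1.14 and -0.85 when each library was left out in turn. Only 0.517% of the tested genes had a lower value, a place that the choice of CCN1 for its fall largely fixes. Among the genes of like GC content (48.5% for CCN1), the median was 0.01. In a bulk library, fewer cells that express a gene and less of its RNA in each cell cannot be told apart.

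CCN2 encodes connective tissue growth factor, a secreted protein of the same family and the most used YAP/TAZ readout. It lies at chr6:131948176-131951372 on the minus strand (ENSG00000118523.6), and 278 bases of its exons (11.9%) overlap LINC01013 on the opposite strand. Its reads were 86, 93 and 113 in NC and 87, 93 and 83 in RBM47-OE. The FPKM values of 1.2, 0.99 and 1.45 in NC enclosed the 1.00, 1.15 and 1.11 of RBM47-OE, so the groups overlapped. The log2 fold change was -0.23 (SE 0.189, 95% confidence interval -0.62 to 0.16), and -0.13 (-0.51 to 0.26) with the GC offset. A change as large as the estimate for CCN1, a gene picked for its fall, lay outside this interval, whereas a smaller fall or a small rise did not. The ratio of CCN1 to CCN2 reads, on the log2 scale, was 2.54, 2.71 and 2.02 in NC against 1.52, 1.91 and 1.55 in RBM47-OE. The means differed by -0.76, which the choice of CCN1 for its fall largely fixes.

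ANKRD1, the third common readout, encodes an ankyrin repeat protein best known from muscle and lies at chr10:90912096-90921087 on the minus strand (ENSG00000148677.7). It had 2, 0 and 3 reads in NC and 0, 4 and 5 in RBM47-OE, which left it below the filter on low counts. With so few reads no difference was detectable at this depth. It is the 1 gene of the 10 that was not fitted.

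AMOTL2, an angiomotin-family scaffold that binds YAP1 and TAZ at cell junctions, lies at chr3:134355347-134375479 on the minus strand (ENSG00000114019.15). Its FPKM was 3.8, 3.70 and 3.89 in NC and 2.96, 3.60 and 3.43 in RBM47-OE. The groups did not overlap, yet the gap between the nearest libraries was narrow. The log2 fold change was -0.26 (SE 0.0895, 95% confidence interval -0.45 to -0.08). AMOTL2 is GC-rich (57.0%), and genes of its GC content had a median of -0.20. With the GC offset the value was -0.08 (-0.25 to 0.09). The pseudogene RPL39P5 overlaps 187 bases of its exons (2.89%) on the same strand.

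AJUBA encodes a LIM-domain protein that binds and inhibits LATS kinases, and lies at chr14:22971177-22982551 on the minus strand (ENSG00000129474.16). Its FPKM values of 4.45, 4.54 and 4.89 in NC and 3.65, 4.73 and 4.31 in RBM47-OE overlapped. On TMM-scaled CPM (counts scaled to a common library size) they did not: the 3 RBM47-OE libraries were 0.38, 0.08 and 0.17 below the NC mean in log2 CPM. The log2 fold change was -0.20 (SE 0.0912, 95% confidence interval -0.39 to -0.02), and -0.09 (-0.26 to 0.07) with the GC offset.

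**Figure D2:**
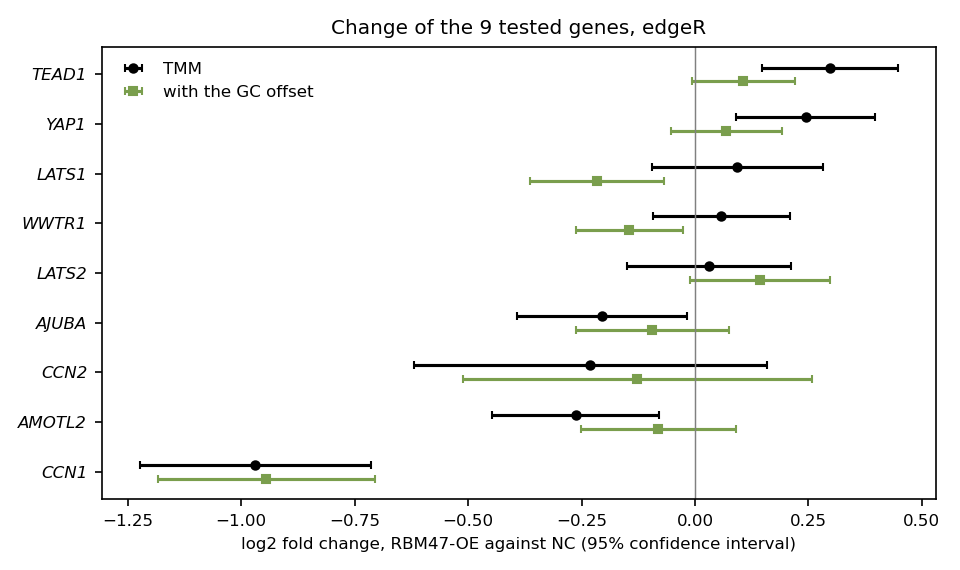
Log2 fold change of RBM47-OE against NC (horizontal axis) for the 9 genes that were fitted, with 95% confidence intervals, from edgeR with TMM scaling (black) and with the GC offset (green). CCN1 stands at -0.97 and -0.95, the other 8 genes lie between -0.26 and 0.30, and LATS1 and WWTR1 change sign with the offset.

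LATS1 and LATS2 encode the kinases that phosphorylate YAP1 and TAZ, and LATS2 is also a YAP/TAZ target. LATS1 (ENSG00000131023.13, chr6:149658153-149718105, minus strand) had FPKM values of 2.52, 2.46 and 2.46 in NC and 2.43, 3.06 and 2.87 in RBM47-OE. The groups overlapped through replicate 1 of RBM47-OE. Its log2 fold change was 0.09 (SE 0.0919, 95% confidence interval -0.10 to 0.28), but -0.22 (-0.36 to -0.07) with the GC offset. LATS1 is GC-poor (39.2%), and genes of its GC content had a median of 0.31. LATS2 (ENSG00000150457.9, chr13:20973036-21061586, minus strand) had FPKM values of 3.92, 3.60 and 3.68 in NC and 3.91, 4.04 and 4.07 in RBM47-OE, which overlapped. Its log2 fold change was 0.03 (SE 0.0882, 95% confidence interval -0.15 to 0.21), and 0.14 (-0.01 to 0.30) with the offset. Neither setting gave LATS2 a fall like that of CCN1.

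YAP1, the transcriptional co-activator (ENSG00000137693.14, chr11:102110447-102233424, plus strand), had FPKM values of 16.88, 15.77 and 16.26 in NC and 18.71, 19.76 and 22.42 in RBM47-OE. Every RBM47-OE library was above every NC library. The log2 fold change was 0.24 (SE 0.0747, 95% confidence interval 0.09 to 0.40), and 0.07 (-0.05 to 0.19) with the GC offset. WWTR1, which encodes TAZ (ENSG00000018408.15, chr3:149517235-149736714, minus strand), was at 8.89, 8.21 and 8.76 FPKM in NC, against 8.79, 9.36 and 10.15 in RBM47-OE. Its groups overlapped, and its log2 fold change of 0.06 (SE 0.0735, 95% confidence interval -0.09 to 0.21) turned to -0.14 (-0.26 to -0.03) with the offset. TEAD1, the TEA-domain factor that brings YAP1 and TAZ to DNA (ENSG00000187079.20, chr11:12674421-12944737, plus strand), was at 9.67, 9.33 and 10.05 FPKM in NC, against 11.22, 13.65 and 12.67 in RBM47-OE, without overlap. Its log2 fold change was 0.30 (SE 0.0728, 95% confidence interval 0.15 to 0.45), and 0.11 (-0.01 to 0.22) with the offset. YAP1, WWTR1 and TEAD1 have exons of 42.6% to 43.3% GC, and genes of that content had a median of 0.22. In WWTR1, WWTR1-AS1 shares 756 bases of exon (9.05%) on the opposite strand, and in YAP1 a long noncoding RNA without a symbol shares 628 bases (9.95%). The strand setting of the counting is not given, but those RNAs had at most 88 and 40 reads in a library. Shared exon in LATS1 and AJUBA came to 3.03% and 0.850%.

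Counted over the set, 9 of the 10 genes were fitted. At a Benjamini-Hochberg adjusted p-value under 0.05 in edgeR, CCN1 and AMOTL2 were called lower and YAP1 and TEAD1 higher, 2 in each direction, and 5 were not called, beside 16.9% of all tested genes called lower and 19.1% called higher. Nothing is read from these counts, since the comparison served to choose CCN1. With the GC offset, CCN1 and LATS1 were called lower and none higher, beside 8.46% and 6.0% of all tested genes. By log2 CPM, 3 of the genes had no overlap between groups and were lower (CCN1, AMOTL2 and AJUBA) and 2 were higher (YAP1 and TEAD1), beside 23.4% and 23.2% of all genes. CCN1 was the only 1 of the 9 past the study's thresholds (p under 0.01 and a fold change over 1.5), applied here to edgeR's unadjusted p-values. By them, 0.873% of all tested genes were lower. The study had already called CCN1 lower by these thresholds in these libraries, so nothing is read from its passing. The median log2 fold change of the 9 was 0.03, and -0.09 with the GC offset, beside a median of 3.96e-05 over all tested genes. The call on AMOTL2 was lost without NC replicate 1, 2 or 3, with the log2 fold change at -0.26, -0.28 and -0.25, and without RBM47-OE replicate 1, at -0.19. That on YAP1 was lost without NC replicate 2 or 3, at 0.22 and 0.24, and without RBM47-OE replicate 3, at 0.16.

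**Figure D3:**
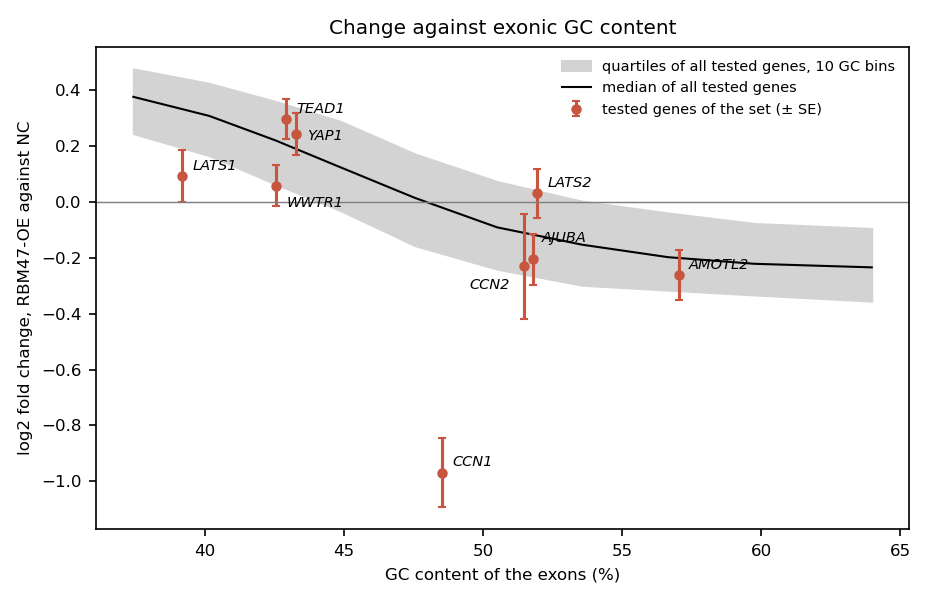
Log2 fold change of RBM47-OE against NC (vertical axis) against the GC content of a gene's exons in percent (horizontal axis), with the median (line) and quartiles (grey) of all tested genes in 10 GC bins and the 9 fitted genes of the set (red, ± SE). The bin median runs from 0.38 at 37.4% GC to -0.23 at 64.0%. CCN1, at 48.5%, was picked for its fall and stands apart from the grey band.

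Proteins that act on mRNA stability are known to bind AU-rich elements, whose core is the pentamer ATTTA (written as DNA and searched on the sense strand of the 3′ UTR only). CCN1 held 4 in the 908 bases of its canonical 3′ UTR, or 4.41 per kb, above 88.3% of 12731 genes, whose median was 1.68 per kb. ANKRD1 and LATS1 were denser, at 5.19 and 4.75 per kb. The remaining genes ran from 1.27 per kb in AMOTL2 to 3.97 in AJUBA. A match describes letters only.

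Beyond these genes, 17 further targets of a 22-gene YAP/TAZ signature were listed, of which 16 were in the count table and 14 were tested (FOXF2, TGFB2 and RBMS3 were not). NT5E, F3, DOCK5 and MYOF rose and AXL fell, and 9 did not pass the test, with a median log2 fold change of 0.08. Over all tested genes, 19.1% were called higher and 16.9% lower, and 6.0% and 8.46% with the GC offset. These are genes outside the set, and their p-values are edgeR's quasi-likelihood values adjusted over all 16260 genes. NT5E, the surface enzyme CD73, rose from 25.06, 25.67 and 25.83 FPKM in NC to 33.14, 36.50 and 39.17 (log2 fold change 0.43, SE 0.0717, adjusted p = 1.02e-04). AXL, a receptor tyrosine kinase, fell from 11.19, 10.45 and 11.34 FPKM to 8.61, 9.06 and 8.48 (-0.41, SE 0.0735, adjusted p = 2.25e-04). For both genes the groups did not overlap and the call held with the GC offset (0.31 and -0.26, adjusted p = 8.27e-04 and 0.00573). The rises of F3, tissue factor (0.32, adjusted p = 0.00617), DOCK5 (0.21, 0.0304) and MYOF (0.20, 0.0298) did not pass with the offset (adjusted p = 0.186, 0.466 and 0.0567). F3 also lost its call without NC replicate 2 (0.28). The calls on DOCK5 and MYOF were lost without any single NC library (0.17 to 0.24 and 0.18 to 0.22), without RBM47-OE replicate 3 (0.16 and 0.15) and, for DOCK5, also without RBM47-OE replicate 2 (0.21).

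Another 8 genes often cited as YAP/TAZ targets were all tested. Of these, 4 fell and none rose, beside 16.9% and 19.1% of all tested genes, and 4 did not pass, with a median of -0.22. Among those that fell, GLI2, a Hedgehog transcription factor, fell by 0.39 on the log2 scale (adjusted p = 0.0151), BIRC5, the mitotic protein survivin, by 0.28 (adjusted p = 0.00440) and MYC by 0.22 (adjusted p = 0.0234). Under the GC offset BIRC5 kept its call (-0.19, adjusted p = 0.0342), GLI2 and MYC did not, AREG, an EGF receptor ligand, gained one (-0.22, adjusted p = 0.0196), and the median was -0.18. Some calls were also lost when 1 library was left out: GLI2 was lost without NC replicate 3 (-0.38) or RBM47-OE replicate 1 (-0.27), and MYC without NC replicate 2 (-0.22), NC replicate 3 (-0.18) or RBM47-OE replicate 2 (-0.15). THBS1, EDN1 and CCND1 did not pass in either setting. EDN1 had 0.08 to 0.20 FPKM in NC and 0.21 to 0.25 in RBM47-OE, and its log2 fold change was 0.57 with an SE of 0.436. None of the 22 tested genes in these target lists reached the study's thresholds, and their lowest value was -0.41, in AXL. CCN1, picked for its fall, was at -0.97.

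**Figure D4:**
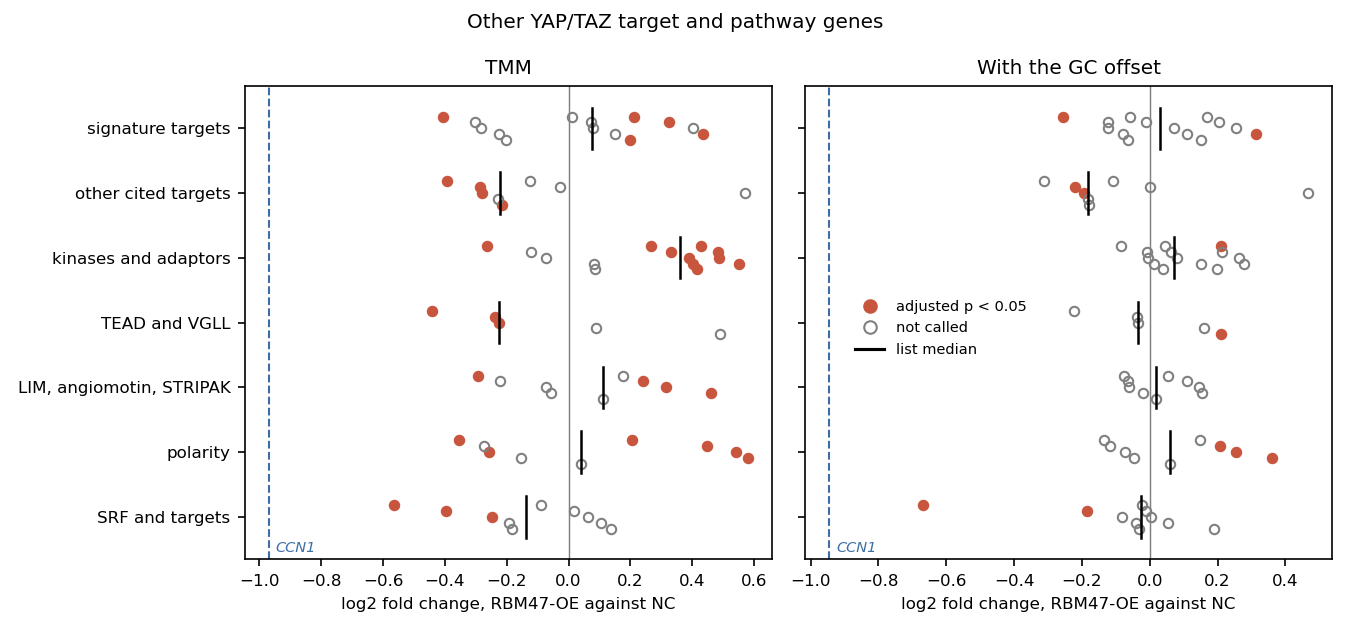
Log2 fold change of RBM47-OE against NC (horizontal axis) of the genes in 7 lists of other YAP/TAZ targets and pathway genes (rows), from edgeR with TMM scaling (left) and with the GC offset (right); filled points passed an adjusted p-value of 0.05, open points did not, black bars are list medians and the dashed line is CCN1. All points lie to the right of CCN1, and the kinase median moves from 0.36 to 0.07 between the panels.

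Upstream of LATS, 9 of 14 Hippo kinases, adaptors and activators rose and 1 fell, beside 19.1% and 16.9% of all tested genes. The median was 0.36. The largest rises were those of STK3, which encodes the kinase MST2 (1.6, 1.74 and 1.55 FPKM in NC, 2.36, 2.65 and 2.53 in RBM47-OE, log2 fold change 0.55, SE 0.0863, adjusted p = 6.48e-05), FRMD6 (0.49, adjusted p = 0.00128), TAOK3 (0.48, 0.00123), MOB1B (0.43, 5.76e-04) and TAOK1 (0.42, 1.60e-04). TAOK2 fell (-0.26, adjusted p = 0.00540). This list is GC-poor, with a median exonic GC of 42.3%. With the GC offset 1 of 14 was called higher (WWC1, 0.21, adjusted p = 0.0202) and none lower, beside 6.0% and 8.46% of all tested genes. The median was then 0.07. STK3 then had 0.21 (adjusted p = 0.0570), and STK4 and SAV1, which rose on the TMM scale (0.27 and 0.33, adjusted p = 0.00924 and 9.15e-04), changed sign to -0.0087 and -0.0042.

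The other TEAD factors went the other way from TEAD1 on the TMM scale. TEAD4 fell from 9.22, 9.67 and 8.81 FPKM to 7.15, 7.73 and 6.56 (-0.44, SE 0.0945, adjusted p = 9.03e-04), TEAD3 fell by 0.24 on the log2 scale (adjusted p = 0.0267) and TEAD2 by 0.23 (adjusted p = 0.0394), while VGLL3 and VGLL4 did not pass. These genes are GC-rich, with a median of 58.9% over the 5 tested. Under the offset none of the 3 TEAD genes passed, TEAD4 stood at -0.22 (adjusted p = 0.0684), and VGLL4, a TEAD cofactor that competes with YAP1, was called higher (0.21, adjusted p = 0.0283). The calls on TEAD2 and TEAD3 were also lost without any single NC library or without RBM47-OE replicate 2 or 3 (-0.25 to -0.18 and -0.26 to -0.21). VGLL1 was not in the table.

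Of 9 LIM, angiomotin and STRIPAK genes, 3 rose and 1 fell, beside 19.1% and 16.9% of all tested genes. STRN (0.46, adjusted p = 3.04e-04), STRN3 (0.32, 0.00333) and SLMAP (0.24, 0.0179), which serve the phosphatase complex that acts on MST kinases, were the 3 that rose, and STRN4 of the same complex fell (-0.29, adjusted p = 0.00278). None passed with the GC offset, and SLMAP changed sign (-0.07). SLMAP was also lost without NC replicate 2 (0.26) or 3 (0.19) or RBM47-OE replicate 2 (0.22) or 3 (0.21). Of 9 polarity genes, 4 rose and 2 fell, beside the same shares of all tested genes. PALS1 (0.58, adjusted p = 5.90e-05), PATJ (0.54, 4.86e-05), DLG1 (0.45, 1.70e-04) and FAT1 (0.20, 0.0391) rose, and SCRIB (-0.35, 4.56e-04) and LLGL1 (-0.26, 0.00623) fell. PATJ (0.36, adjusted p = 6.42e-04), PALS1 (0.25, 0.0236) and DLG1 (0.21, 0.0207) passed with the GC offset, and FAT1, SCRIB and LLGL1 did not. The FAT1 call was lost without any single NC library (0.19 to 0.23) or RBM47-OE replicate 2 (0.15), and that of LLGL1 without NC replicate 2 (-0.23).

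CCN1 is also a target of SRF, the serum response factor, which works with MRTF co-activators on cytoskeletal genes. Any part of SRF in the lower level of CCN1 was not tested. Of 10 tested genes of that list 3 fell and none rose, beside 16.9% and 19.1% of all tested genes, with a median of -0.14. SRF fell from 17.46, 16.59 and 18.07 FPKM to 13.78, 13.93 and 13.89 (-0.40, SE 0.0710, adjusted p = 2.05e-04), and the call held with the GC offset (-0.19, adjusted p = 0.0378). ACTA2, smooth muscle actin, was at 1.85, 2.90 and 2.27 FPKM in NC, against 1.96, 1.58 and 1.45 in RBM47-OE, so its groups overlapped although it passed the test (-0.56, SE 0.158, adjusted p = 0.00682). With the offset ACTA2 was at -0.67 (adjusted p = 0.00680), but without NC replicate 2 the value was -0.38 and the call was lost. MYL9, a myosin light chain, fell by 0.25 on the log2 scale (adjusted p = 0.0182) and did not pass with the offset (-0.04), nor without NC replicate 2 (-0.23) or 3 (-0.23) or RBM47-OE replicate 2 (-0.24). CNN1, singled out after its values were seen, had 7, 13 and 7 reads in NC and 0 in each RBM47-OE library, and was below the filter. MRTFA, MRTFB, TAGLN, VCL, TPM1, FHL2 and ACTB did not pass in either setting. In the CCN family, CCN3 had 33, 86 and 34 reads in NC and 70, 65 and 58 in RBM47-OE and did not pass (0.29, adjusted p = 0.409), and CCN4 and CCN6 had at most 1 read in a library.

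Over the 48 tested pathway genes outside the set and the target lists, 16 rose and 10 fell, beside 19.1% and 16.9% of all tested genes. The median was 0.08. With the GC offset 5 rose and 2 fell, beside 6.0% and 8.46% of all tested genes, with a median of 0.03. Genes were also ordered by the distance of their profiles over the 6 libraries from that of CCN1 (root mean square of the differences). Each profile was log2 CPM minus the gene's own NC mean, for 14005 genes with a mean log2 CPM of at least 0. The genes most like CCN1 were SEPT5-GP1BB (0.135), CTD-3065J16.9 (0.166), EFHD1 (0.185), RP5-1090P18.1 (0.187) and RRN3P3 (0.192). SEPT5-GP1BB, EFHD1 and RRN3P3 lay near that minimum, with means of 0.73, 0.27 and 0.13 against 3.67 for CCN1. Of the other fitted genes of the set, AMOTL2 was the nearest at 0.524, in place 1801 by distance, then AJUBA at 0.563 (2759) and CCN2 at 0.591 (3514). TEAD1 was the farthest, at 0.911. The distance follows mostly the size of the change from NC, for which CCN1 was picked, so nothing is read from these places.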

How the data were processed

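Polyadenylated RNA of 3 NC and 3 RBM47-OE samples of HCT116 cells was sequenced. The authors trimmed reads with FASTX-Toolkit, used HISAT2 for alignment to GRCh38, and deposited raw counts of uniquely mapped reads per gene. Per the methods, the authors also derived FPKM from the uniquely mapped reads. The counting tool, its strand setting and the annotation release are not given in the sources used here, and 28416 of 28491 gene identifiers matched GENCODE 44, used for coordinates, exonic GC content and 3′ UTRs.

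Genes were kept with filterByExpr (minimum count 10, minimum total 15) and fitted with edgeR 4.0.16 in R 4.3.3 (TMM, quasi-likelihood test, condition as the only term), and p-values were adjusted by Benjamini-Hochberg over all 16260 genes. The standard error is the size of the log2 fold change over the square root of F. The GC offset was a loess curve (span 0.3) per library. Log2 CPM used a prior count of 2. DESeq2 1.42.0 and limma 3.58.1 (on log2(FPKM + 1) and log2(FPKM + 0.1), mean FPKM of at least 0.1) were alternatives. Scripts were tested on simulated data.

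The genes and lists were chosen with earlier results of these data known. Named were all 10 genes of the set, up to 5 genes per direction with the largest change among those past the threshold in each other list, the 5 genes most like CCN1, and RBM47. Genes named outside that rule (those that changed their call, those below the filter and those that did not pass) are given to account for the lists. A listed gene is counted but not reported here.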

Additional observations from a re-analysis of the deposited data

How the results depend on the processing

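As a description of the gene chosen for its fall, the log2 fold change of CCN1 ran from -1.14 to -0.68 over 18 fits, the reported one included, the latter on the log2(FPKM + 1) scale, which understates changes of low genes. Over the 9 fitted genes of the set, no call or direction changed with DESeq2, RLE factors, no filter or at least 10 counts in every library. CCN2 ranged from -0.37 to -0.08 and AMOTL2 from -0.30 to -0.08. With the GC offset, and with the offset and the block, signs turned for LATS1 (-0.216 and -0.216), WWTR1 (-0.145 and -0.146) and SLMAP (-0.0651 and -0.0638), and with the offset also for other listed genes, among them STK4 and SAV1. The cause of the GC trend was not tested. The replicates per group number 3, and ANKRD1, at 5 reads or fewer, was below what this depth resolves.

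Numbers of calls are given as lower and higher for the set of 10 (2 and 2 as reported), the target lists (5 and 4), the pathway lists (10 and 16) and all genes (2740 and 3100). With the GC offset they were 2 and 0, 3 and 1, 2 and 5, and 1375 and 975. With limma on log2(FPKM + 1), lower calls were 1, 2, 4 and 1586, and on log2(FPKM + 0.1) they were 1, 2, 4 and 1599. Without a filter on FPKM the calls were 1 and 1, 1 and 2, 4 and 9, and 908 and 1410. With library totals, lower calls were 1 in the set and 3 among targets. By the study's thresholds, applied to the edgeR fit, the calls were 1 and 0, 0 and 0, 0 and 0, and 142 and 245. The study applied them with DESeq2 and reported fewer genes in each direction. Leaving out each library in turn gave 1 to 3 lower and 1 to 2 higher calls in the set (AJUBA was added at -0.27 without RBM47-OE replicate 2), 2 to 7 and 1 to 5 among targets, 5 to 13 and 13 to 18 in the pathway, and 1675 to 3508 and 2090 to 3864 among all genes; the lowest value for lower calls among all genes came without NC replicate 2.

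The groups share replicate numbers, but same-numbered libraries did not deviate together (correlations of -0.06, -0.015 and -0.016), and no library correlated best with its own number. Whether same-numbered libraries shared a culture or a preparation is not given, and these correlations cannot decide it. With the replicate block the target lists had 2 higher calls, and with the GC offset and replicate block the calls were 1 and 0 in the set, 3 and 2 among targets, 2 and 8 in the pathway and 1427 and 1024 among all genes.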

Other observations

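Among 9421 tested genes with no TEAD motif in any of their RefSeq promoters, the median log2 fold change was 0.01. Among 1525 genes with 1 motif it was 0.03, and among 148 genes with 2 or more it was -0.05, or -0.02 with the GC offset. Of those 148 genes, 14.9% were called lower and 20.9% higher by edgeR, beside 19.0% and 22.3% of the genes with no motif. Of 13 tested genes in the target lists with a promoter in the table, 5 held at least 1 motif: NUAK2 held 2, and AXL, PTPN14, THBS1 and EDN1 held 1. NT5E, the target with the largest rise that passed the test, held none, and AXL, the one with the largest fall that passed, held 1. These are counts of letters in a window, and no relation between them and the changes was tested.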
